A study of Mus musculus with 8 samples.

Results

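A set of 10 genes of the BCL2 family was examined in adipose tissue macrophages sorted for the IgG receptor FCGR4, namely *Bcl2*, *Bcl2l1*, *Mcl1*, *Bcl2a1b*, *Bax*, *Bak1*, *Bcl2l11*, *Bid*, *Pmaip1* and *Bbc3*. They were chosen by symbol and make up 10 of the 54146 genes counted, and all 10 had enough counts to be tested. Bulk RNA-Seq had been done on cells of epididymal white adipose tissue (eWAT) from 4 C57Bl6 mice, each giving 1 FCGR4+ and 1 FCGR4- library. Every mouse had eaten a high fat diet freely for 24 weeks and had then received 30% less food (short-term caloric restriction, stCR) during 2 weeks, so that diet and weight loss were shared by both populations and no mouse without stCR was included. Both populations were CD45+ CD3- B220- Ly6G- SiglecF- CD11b+ cells split by an antibody to FCGR4, and the labels name no treatment that lowers the LDL receptor in these mice and give no age. The comparison asks whether macrophages that carry FCGR4 differ from the other macrophages of the same fat pad in the transcripts that set the balance of cell survival and death.

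The BCL2 family controls the release of cytochrome *c* from mitochondria, the step that starts the intrinsic form of apoptosis. Its pro-survival proteins (BCL2, BCL-XL, MCL1 and A1) hold back the effectors BAX and BAK, which open the outer mitochondrial membrane, and the BH3-only proteins (among them BIM, BID, NOXA and PUMA) either block the pro-survival proteins or activate the effectors. A1 is known as a pro-survival protein of blood cells, macrophages among them, and is encoded in mice by several near-identical genes. Much of the family is also regulated after transcription, through protein turnover and cleavage, which RNA counts do not show.

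*Bcl2a1b*, which encodes an A1 protein, had the smallest p of the 10 genes and belongs to that group of copies, so the sequences that separate the copies are shown first. The copies *Bcl2a1a*, *Bcl2a1b* and *Bcl2a1d* each had a coding sequence of 519 bases. *Bcl2a1b* differed from *Bcl2a1d* at 6 of these bases (98.8% identity) and from *Bcl2a1a* at 11 (97.9%), and *Bcl2a1a* differed from *Bcl2a1d* at 7 (98.7%). The first 120 coding bases held 7 of the 12 positions at which the 3 copies are not all alike, and these are in capitals below (mm10, chr9:88957051-88957170 on the plus strand for *Bcl2a1a*, chr9:89199360-89199479 on the plus strand for *Bcl2a1b* and chr9:88731600-88731719 on the minus strand for *Bcl2a1d*, all exonic).
Bcl2a1a: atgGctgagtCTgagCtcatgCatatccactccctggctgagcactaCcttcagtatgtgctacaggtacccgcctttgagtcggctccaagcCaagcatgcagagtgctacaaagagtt
Bcl2a1b: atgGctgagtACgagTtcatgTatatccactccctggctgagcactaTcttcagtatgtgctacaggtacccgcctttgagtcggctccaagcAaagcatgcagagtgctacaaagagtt
Bcl2a1d: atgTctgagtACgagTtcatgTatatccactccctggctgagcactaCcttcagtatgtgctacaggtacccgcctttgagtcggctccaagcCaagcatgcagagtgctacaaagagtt
Counting from 1 at the A of the ATG, with the base of the copy named first before the position, *Bcl2a1a* and *Bcl2a1b* differed in this stretch by C11A, T12C, C16T, C22T, C48T and C94A, and *Bcl2a1b* and *Bcl2a1d* by G4T, T48C and A94C. At positions 48 and 94, *Bcl2a1b* differed from both other copies. The longest stretch of coding sequence that the 3 copies shared without a difference was 217 bases. Of all 50-base words of the *Bcl2a1b* transcripts, 79.2% also occurred in another gene, and 57.6% occurred in *Bcl2a1d*. The authors counted a read pair that mapped to several places at each of them, so that the counts of one copy can hold pairs of another.

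The stretch upstream of these genes was also alike. In each of the 4 copies, the RefSeq promoter (GRCm38.p6, from 250 bases before to 50 after the start) held the letters GAGGAAGT, the core of the motif of PU.1, a transcription factor that macrophages need. A window of 68 bases around the match is shown for *Bcl2a1b* (chr9:89199095-89199162, plus strand) and *Bcl2a1d* (chr9:88731917-88731984, minus strand), with the match in capitals, because it lies outside the transcribed part of both genes.
Bcl2a1b: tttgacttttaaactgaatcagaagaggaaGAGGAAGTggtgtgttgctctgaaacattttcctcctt
Bcl2a1d: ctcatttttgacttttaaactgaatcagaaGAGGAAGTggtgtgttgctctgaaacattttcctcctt
Promoters were given for 9 of the 10 genes, 14 in all, with 1 each for *Bcl2a1b* and *Bak1*. On either strand the letters were found in those of *Bcl2a1b* and *Bak1* and not in those of the other 7 genes. Counted by promoter, 3.2% of 32851 mouse promoters held them, and a share by gene was not taken. Elsewhere in the family they were also found in 1 of 2 promoters of *Bad* and 1 of 2 of *Bcl2l14*. An NF-κB motif of 10 letters, searched in the same way, was in none of the 14 promoters and in 0.411% of all promoters. These are matches of letters in a fixed window, and no binding was measured.

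Library depth lay between 35992794 and 66856746 counts, and values are given as normalized CPM (counts scaled by TMM library sizes), on which 3 counts correspond to between 0.0440 and 0.0883. *Fcgr4* itself, the gene of the sorted protein, was at 139 to 236 normalized CPM in FCGR4+ and 48.5 to 82.9 in FCGR4- macrophages, higher in FCGR4+ in 4 of 4 mice, which checks the labels. Macrophage markers (12 genes) summed to 30599 to 55093 normalized CPM in FCGR4+ and 24433 to 48518 in FCGR4- libraries. Of them 10 had a log2 fold change above 0, and 0 were called. Markers of several other cell types were lower in FCGR4+ macrophages. Of 9 tested mast cell and basophil markers 9 were called lower, with a summed level of 14.5 to 30.5 against 391 to 2147 normalized CPM and *Mcpt8* at 0 in all FCGR4+ libraries, and neutrophil markers (6 of 8 called lower, 81.3 to 502 against 362 to 2187), dendritic cell markers (4 of 8, 7.91 to 16.1 against 45.1 to 97.4), T and NK cell markers (6 of 11, 3.88 to 11.3 against 19.0 to 59.5), B cell markers (2 of 6, 179 to 334 against 408 to 2325) and fibroblast markers (5 of 8, 146 to 293 against 364 to 1572) moved in the same direction. Among the B cell markers, 1 of 6 had a log2 fold change above 0. Of the endothelial markers 0 of 6 were called (5.70 to 16 against 10.4 to 14.5), and of the adipocyte markers 0 of 7 (271 to 283 against 181 to 285, with the sum lower in FCGR4+ in 1 of 4 mice), and no marker was at 0 in every library. In bulk samples, fewer cells of a type and less RNA per cell cannot be told apart, and the part of these other cells in the values below was not tested.

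None of the 10 genes passed the threshold (adjusted p under 0.1 in the quasi-likelihood test of edgeR, paired by mouse, with Benjamini-Hochberg adjustment over 17095 tested genes), at which 1.27% of all tested genes were called, 0.0819% higher and 1.19% lower in FCGR4+ macrophages. At an unadjusted p under 0.05, 1 of the 10 (*Bcl2a1b*) was found, against 9.77% of all genes. DESeq2 called 1 of the 10 (*Bcl2a1b* again, 5.99% of all genes), as did edgeR's newer quasi-likelihood method (3.7%), and the fit without the mouse as a block called 0 (0.281%). The fit with no filter on low counts also called *Bcl2a1b*, with 2.77% of its 38021 genes called and 917 of the 17095 genes that pass the filter. The log2 fold changes, FCGR4+ over FCGR4-, were above 0 for 3 genes and below 0 for 7, with a median of -0.11 against -0.0025 over all tested genes. Values of the populations without overlap were found for 0 of the 10, against 3.91% of all tested genes. Values of FCGR4+ were above those of FCGR4- in 4 of 4 mice for *Bcl2a1b* and *Bak1* (8.38% of all genes) and below them in 4 of 4 for *Bbc3* (10.5%).

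**Figure D1:**
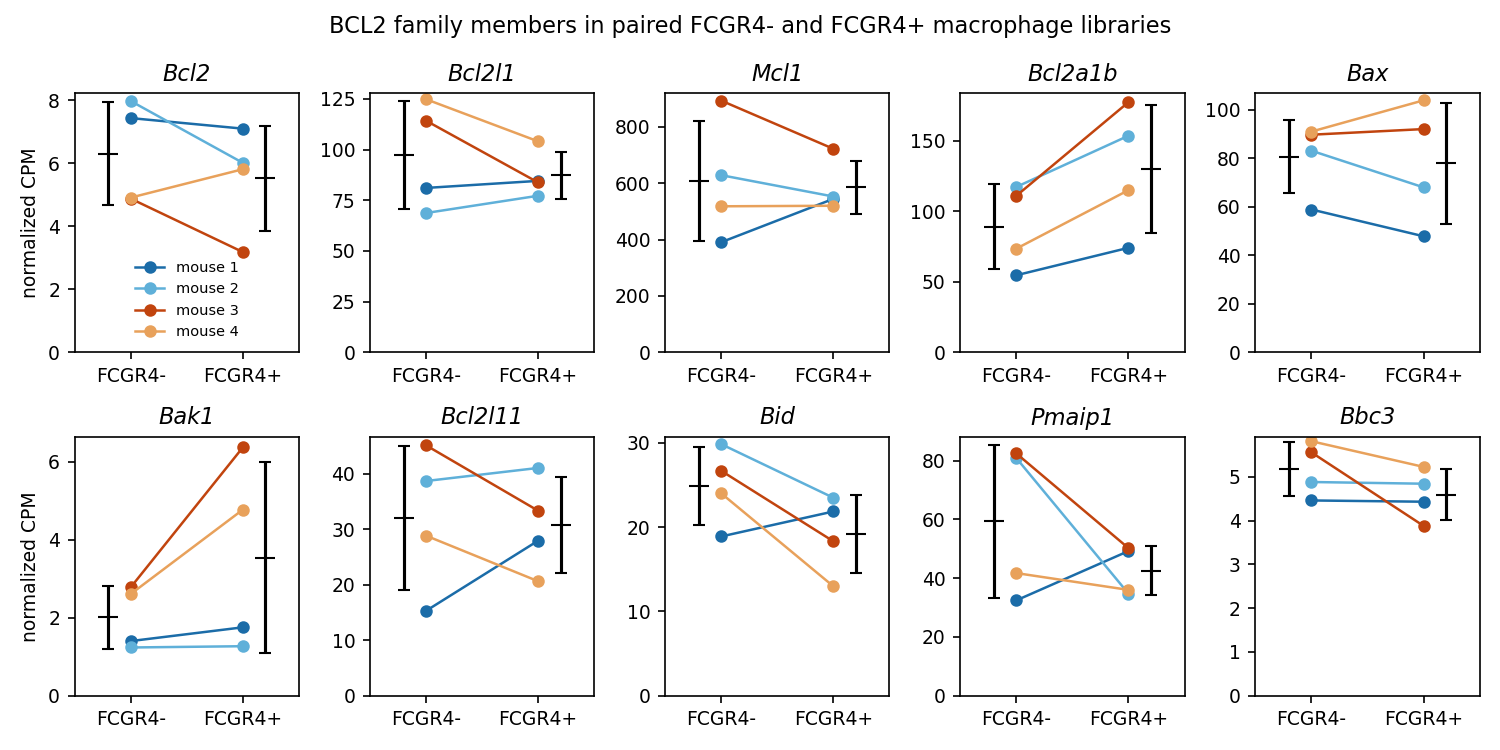
Normalized CPM of the 10 genes (vertical axes, linear, from 0, each gene on its own scale) in FCGR4- and FCGR4+ macrophages, with a line joining the 2 libraries of 1 mouse and black bars for the mean and SD of 4 mice. The lines of *Bcl2a1b* and *Bak1* all slope upward, those of *Bbc3* all slope downward, those of the other 7 genes go both ways, and in every panel the populations overlap.

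Of the pro-survival genes, *Bcl2a1b* (chr9:89199209-89207827, plus strand) was measured at 74.0, 153, 177 and 115 normalized CPM in the FCGR4+ macrophages of mice 1 to 4 and at 54.5, 117, 111 and 73.4 in their FCGR4- macrophages. The FCGR4+ value was the higher one in each mouse, while the populations overlapped because the mice themselves differed, mouse 1 being low and mice 2 and 3 high in both. The log2 fold change was 0.54 (SE 0.129, 95% interval 0.24 to 0.84), that is 1.45-fold (1.18 to 1.79), with an unadjusted p of 0.00393 and an adjusted p of 0.178 by edgeR. It was the only one of the 10 genes whose interval left out 0, and it ranked 376 of 17095 by p. The adjusted p was 0.0051 with DESeq2, 0.0874 with the newer edgeR method and 0.0808 with no filter, and over the alternatives that keep *Bcl2a1b* as a gene of its own it ranged from 0.0051 to 0.919, and the estimate of the log2 fold change from 0.41 to 0.64. Values that take its copies into account were lower and are given with the copies.

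The other copies gave values on both sides. *Bcl2a1d* was at 101, 121, 177 and 131 normalized CPM in FCGR4+ and at 77.8, 137, 122 and 86.7 in FCGR4- macrophages of mice 1 to 4, a log2 fold change of 0.34 (SE 0.167, interval -0.06 to 0.73, adjusted p = 0.560 by edgeR). *Bcl2a1a* was at 75.9, 81.8, 121 and 90.2 in FCGR4+ and 54.7, 104, 88.4 and 59.7 in FCGR4-, a log2 fold change of 0.30 (SE 0.185, interval -0.14 to 0.73, adjusted p = 0.622 by edgeR). Both were higher in the FCGR4+ macrophages of mice 1, 3 and 4 and lower in those of mouse 2, where *Bcl2a1b* alone was higher. *Bcl2a1c*, which has a shorter coding sequence of 387 bases, was at low levels (0.455 to 1.10 in FCGR4+ and 0.339 to 1.32 normalized CPM in FCGR4-).

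Relative to the mean of *Bcl2a1a* and *Bcl2a1d*, *Bcl2a1b* had a count ratio of 0.834, 1.52, 1.19 and 1.04 in FCGR4+ and 0.823, 0.974, 1.05 and 1.00 in FCGR4- macrophages. The ratio was thus higher in FCGR4+ in each mouse, but mouse 2 stood far above the others, with log2 differences of 0.02, 0.64, 0.18 and 0.05 (mean 0.22, SD 0.287, n = 4). The exact two-sided permutation test gave p = 0.125, the smallest that 4 pairs allow. With the counts of the 4 copies summed, the log2 fold change was 0.40 (SE 0.151, interval 0.04 to 0.75, adjusted p = 0.453 by edgeR). A further limit of the counts of *Bcl2a1b* is that 401 of its 817 exon bases (49.1%) lie in exons of *Gm29094* on the same strand, a gene with 25 to 63 counts in any library, and a pair that falls on both genes was given to neither.

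**Figure D2:**
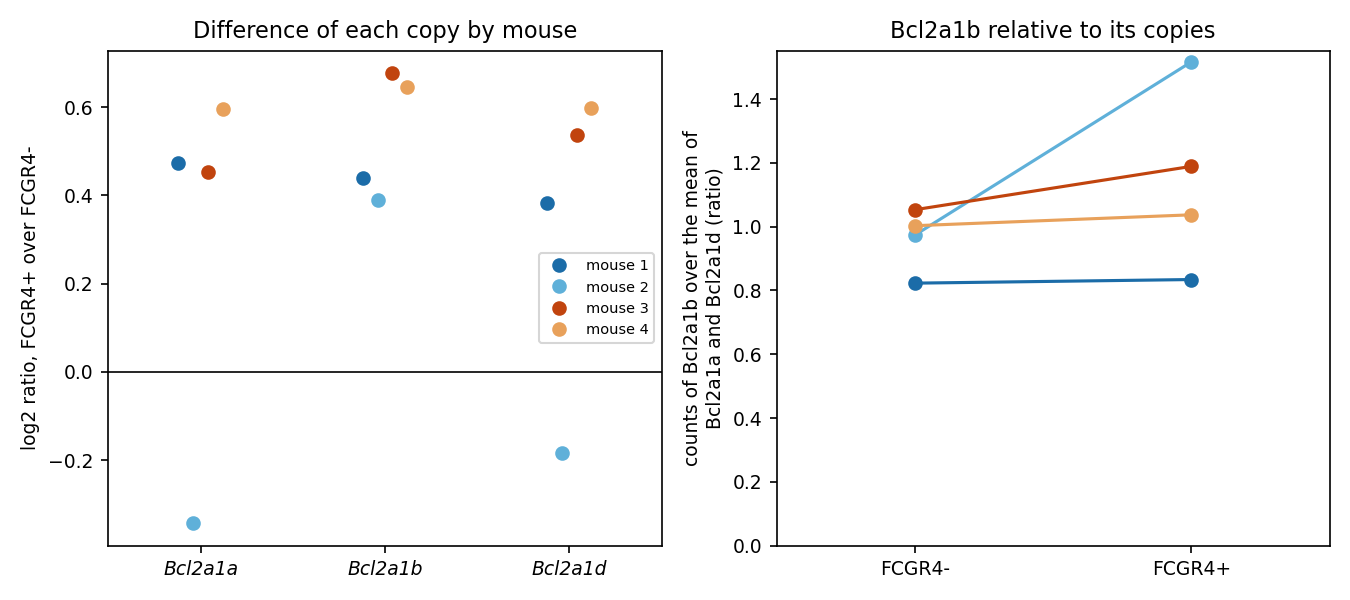
Left, the log2 ratio of FCGR4+ over FCGR4- normalized CPM in each of 4 mice (points) for 3 *Bcl2a1* copies, with 0 as a line. Right, the count of *Bcl2a1b* divided by the mean count of *Bcl2a1a* and *Bcl2a1d* in each library (axis from 0), with a line for each mouse. Mouse 2 is below 0 for *Bcl2a1a* and *Bcl2a1d* and above 0 for *Bcl2a1b*, and its ratio in FCGR4+ macrophages, 1.52, is the highest of the 8 libraries.

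*Mcl1* (chr3:95658788-95663176, plus strand), whose short-lived protein sequesters BIM, NOXA and BAK, was at 545, 553, 723 and 520.1 normalized CPM in FCGR4+ and at 390.5, 629, 894 and 518 in FCGR4- macrophages of mice 1 to 4. It was higher in FCGR4+ in mice 1 and 4 and lower in mice 2 and 3, and the log2 fold change was -0.0025 (SE 0.164, interval -0.39 to 0.38, adjusted p = 0.997 by edgeR). *Bcl2l1* (chr2:152780668-152831728, minus strand), which encodes BCL-XL, was at 84.5, 77.2, 83.7 and 104 in FCGR4+ and 81.0, 68.7, 114 and 125 in FCGR4-, with a log2 fold change of -0.12 (SE 0.151, interval -0.48 to 0.24, adjusted p = 0.789 by edgeR). Its FCGR4+ value was slightly the higher in mice 1 and 2 and the lower in mice 3 and 4.

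*Bcl2* (chr1:106538178-106714274, minus strand), the founding member of the family, was scarce in these macrophages. It was at 7.10, 6.01, 3.18 and 5.81 normalized CPM in FCGR4+ and at 7.43, 7.97, 4.88 and 4.91 in FCGR4-, from 199 to 483 counts in a library. The FCGR4+ value was lower in 3 of 4 mice, by a log2 fold change of -0.21 (SE 0.224, interval -0.74 to 0.32, adjusted p = 0.750 by edgeR).

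Of the effectors, *Bax* (chr7:45461697-45466898, minus strand) was at 47.7, 67.9, 91.9 and 104 normalized CPM in FCGR4+ and at 58.8, 83.0, 89.6 and 90.9 in FCGR4- macrophages. It was lower in FCGR4+ in mice 1 and 2 and higher in mice 3 and 4, and its log2 fold change was -0.090 (SE 0.144, interval -0.43 to 0.25, adjusted p = 0.836 by edgeR). *Bak1* (chr17:27019810-27029009, minus strand), which encodes BAK, was at 1.75, 1.27, 6.37 and 4.77 in FCGR4+ and at 1.40, 1.24, 2.78 and 2.61 in FCGR4-. Its value was higher in FCGR4+ in 4 of 4 mice, by 0.04 on the log2 scale in mouse 2 and by 1.19 in mouse 3, and the log2 fold change of 0.62 was the highest of the 10 with the widest interval (SE 0.313, interval -0.12 to 1.36, adjusted p = 0.563 by edgeR). Its counts were low, 42 to 399 in a library, and 14.8% of its exon bases overlap *Ggnbp1* on the other strand, which the counting did not separate.

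The BH3-only genes had 3 log2 fold changes below 0 and 1 near 0. *Bcl2l11* (chr2:128126038-128162547, plus strand) encodes BIM, which binds every pro-survival protein, and was at 27.9, 41.1, 33.3 and 20.6 normalized CPM in FCGR4+ and at 15.3, 38.7, 45.1 and 28.9 in FCGR4- macrophages. Its FCGR4+ value was the higher in mice 1 and 2 and the lower in mice 3 and 4, which left a log2 fold change of 0.0036 (SE 0.241, interval -0.56 to 0.57, adjusted p = 0.997 by edgeR). *Bid* (chr6:120891930-120916853, minus strand), which links death receptors to mitochondria once caspase-8 has cut its protein, was at 21.9, 23.5, 18.3 and 12.99 in FCGR4+ and at 18.9, 29.9, 26.7 and 24.0 in FCGR4-. Mouse 1 went one way and the other 3 mice the opposite way, with a log2 fold change of -0.39 (SE 0.202, interval -0.87 to 0.08, adjusted p = 0.566 by edgeR), and 17.7% of its exon bases overlap *Bcl2l13* on the other strand.

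*Pmaip1* (chr18:66458604-66465550, plus strand) encodes NOXA, a p53 target that binds MCL1 and A1, and was at 49.2, 34.7, 50.2 and 36.0 normalized CPM in FCGR4+ and at 32.4, 80.9, 82.5 and 41.7 in FCGR4- macrophages. The FCGR4- values spread more widely, with mice 2 and 3 far above mice 1 and 4, and the log2 fold change was -0.39 (SE 0.284, interval -1.06 to 0.28, adjusted p = 0.658 by edgeR). Single mice moved this estimate, to -0.72 without mouse 1 and to -0.12 without mouse 2. *Bbc3* (chr7:16308393-16318205, plus strand), which encodes PUMA, another p53 target, was at 4.43, 4.85, 3.88 and 5.23 in FCGR4+ and at 4.46, 4.88, 5.56 and 5.82 in FCGR4-. All 4 mice were lower in FCGR4+, mice 1 and 2 by 0.01 on the log2 scale, and the log2 fold change was -0.17 (SE 0.217, interval -0.68 to 0.34, adjusted p = 0.789 by edgeR).

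The intervals show what these libraries could resolve. The distance from the estimate to either end of its interval was between 0.30 and 0.74 on the log2 scale, 9 of 10 intervals covered 0, and 8 of 10 left out a change of 2-fold in either direction, the exceptions being *Bak1* and *Pmaip1*. An interval that covers 0 does not show that the populations were equal.

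**Figure D3:**
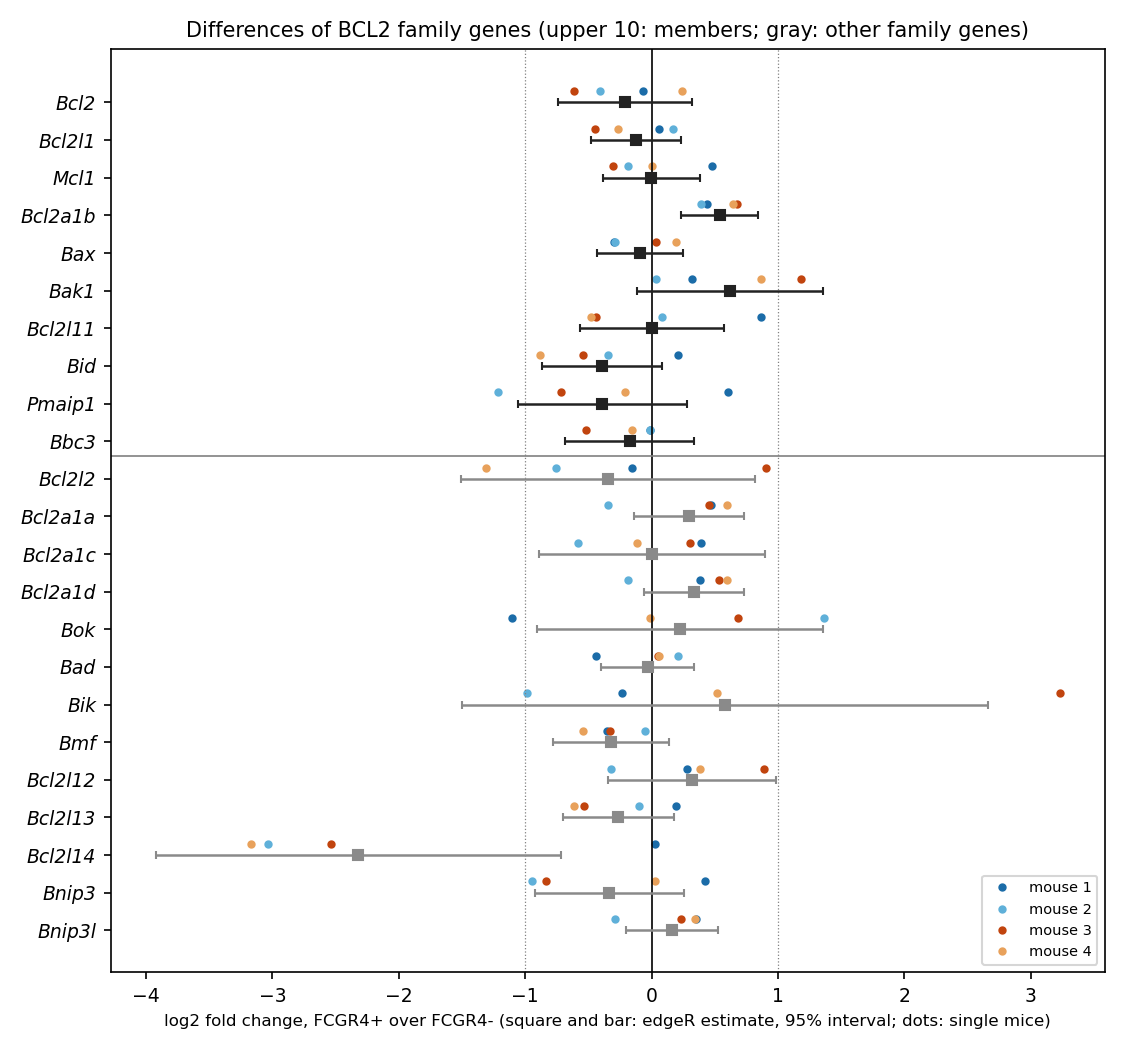
Log2 fold change of FCGR4+ over FCGR4- macrophages (horizontal axis) for the 10 genes (black, above the line) and 13 other tested genes of the family (gray), with squares for edgeR's estimate, bars for its 95% interval, dots for single mice and dotted lines at 2-fold. Among the 10, the bar of *Bcl2a1b* alone lies to the right of 0, and *Bcl2l14*, at -2.32, stands apart from the rest of the family.

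Set side by side per length (normalized CPM per kilobase of the deposited gene length), the 10 genes covered a wide range. *Mcl1* had a mean of 175 over the 8 libraries (114 to 261) and *Bcl2a1b* one of 134 (66.8 to 217). Their ranges overlapped, and *Mcl1* was the higher of both in 6 of 8 libraries, an order that rests on the length used. With the whole count of *Bcl2a1b* divided by its 416 exon bases outside *Gm29094* alone, its mean was 263 (131 to 426) and above *Mcl1* in 8 of 8 libraries. Reads over those bases were not counted apart. Pairs counted at several copies also add to the level of *Bcl2a1b*, so these 2 genes were not ordered. *Bax* came next at 50.3 (30.3 to 65.9), below both in every library, and its range met that of *Pmaip1* (12.3 to 31.2). *Bcl2l1* (20.1) and *Pmaip1* (19.3) could not be ordered, each being the higher in 4 of 8 libraries, and *Bid* (6.20), which lay below both in every library, *Bcl2l11* (3.91), *Bbc3* (2.30), *Bak1* (1.15) and *Bcl2* (0.646) followed, with overlapping ranges between neighbors from *Bid* down. *Bak1* and *Bcl2* exchanged places in 4 of 8 libraries.

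As a share of the per-length sum over the 10 genes, the 4 pro-survival genes took 81.4%, 83.8%, 83.1% and 77.8% in the FCGR4+ macrophages of mice 1 to 4 and 77.0%, 77.6%, 80.1% and 75.4% in their FCGR4- macrophages. The share was higher in FCGR4+ in each mouse, and the populations overlapped in range. Of these genes, only *Bcl2a1b* had a log2 fold change above 0 (0.54). Those of *Mcl1*, *Bcl2l1* and *Bcl2* were -0.0025, -0.12 and -0.21, so the higher share cannot be read as a trait of the pro-survival genes together. The BH3-only genes took 9.18%, 6.20%, 5.60% and 5.49% in FCGR4+ and 8.34%, 10.4%, 8.89% and 8.09% in FCGR4-, a lower share in FCGR4+ in mice 2, 3 and 4. The effectors took 9.39%, 9.96%, 11.3% and 16.7% against 14.6%, 12.02%, 11% and 16.5%, lower in mice 1 and 2 and higher in mice 3 and 4. The share of *Bcl2a1b* was 36.3% ± 6.87 in FCGR4+ and 27.3% ± 3.44 in FCGR4-, and that of *Mcl1* 40.5% ± 5.25 and 44.4% ± 3.58 (SD, n = 4). These shares are a description, as each holds the *Bcl2a1b* level whose limits are given above. With the count of *Bcl2a1b* divided by its 416 bases outside *Gm29094* alone, the share of *Mcl1* was 30.2% in FCGR4+ and 35.2% in FCGR4-.

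**Figure D4:**
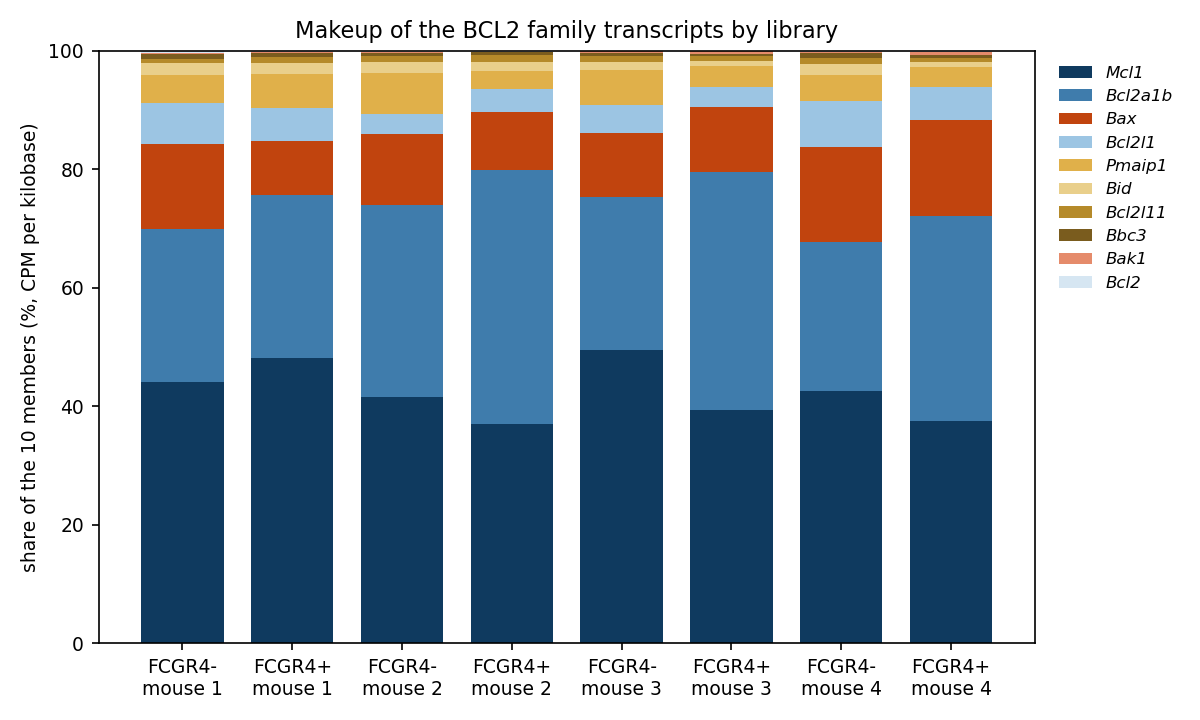
Share of each of the 10 genes in their sum of normalized CPM per kilobase (stacked, 0 to 100%) in the 8 libraries, in pairs by mouse. *Mcl1* and *Bcl2a1b* (the 2 darkest blues) fill most of every bar, and the *Bcl2a1b* band is wider in FCGR4+ than in FCGR4- macrophages of each mouse.

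Much of the spread of these genes went with the mouse. The sum of squares of log2 normalized CPM over the 8 libraries was taken up by mouse to a median of 74.8% over the 10 genes (57.0% over all tested genes) and by population to a median of 10.1% (9.49% over all tested genes), and mouse took over 50% for 7 of 10. *Bid*, *Pmaip1* and *Bbc3* were the other 3, at 36.5%, 37.7% and 42.4%. For *Bcl2a1b*, mouse took 73.7% and population 25.0%, which left little over. Mouse has 3 degrees of freedom and population 1, and per degree of freedom mouse took more than population for 6 genes and less for *Bcl2a1b* (24.6% against 25.0%), *Bid*, *Pmaip1* and *Bbc3*.

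Mice 1 and 2 carry another animal ID prefix in the labels than mice 3 and 4, and what the prefixes stand for was not given in the sources used here. In all 8 libraries, 3 of the 10 genes separated these pairs of mice, against 16.4% of all tested genes. *Bcl2* was at 6.01 to 7.97 normalized CPM in mice 1 and 2 and at 3.18 to 5.81 in mice 3 and 4. *Bax* was at 47.7 to 83.0 in mice 1 and 2 and at 89.6 to 104 in mice 3 and 4, and *Bak1* was at 1.24 to 1.75 and 2.61 to 6.37. The effectors were therefore lower, and *Bcl2* higher, in mice 1 and 2 whatever the population, and the ID prefix and the mice cannot be told apart. The difference between the populations had one sign in both mice of a prefix and the opposite sign in both mice of the other for *Bcl2l1*, *Bax* and *Bcl2l11*, 3 of the 10 genes, against 17.0% of all tested genes.

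**Figure D5:**
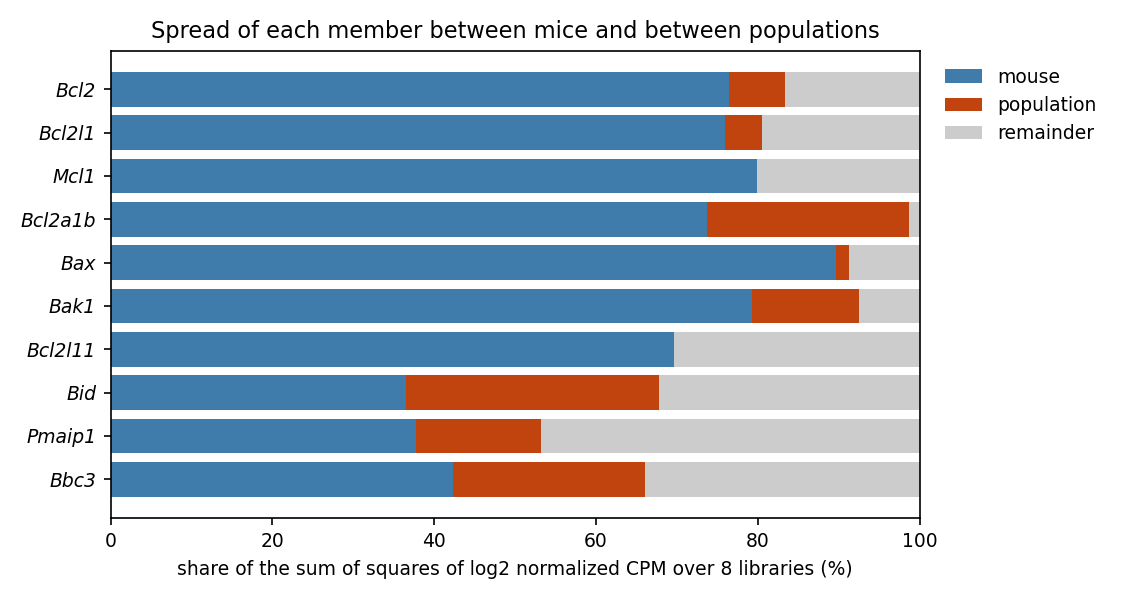
Share of the sum of squares of log2 normalized CPM over 8 libraries (horizontal axis, 0 to 100%) that goes with mouse (blue), with population (red) and with neither (gray), for each of the 10 genes. Mouse takes over 50% in 7 genes, up to 89.7% for *Bax*, and population takes 31.2% at most, for *Bid*.

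Over the 8 libraries, the genes whose log2 normalized CPM ran most like that of *Bcl2a1b* were *Sat1*, which breaks down polyamines (Pearson r = 0.962), *Cgnl1* (0.952), *B2m*, the light chain of MHC class I (0.949), *Ubl7* (0.945) and *Rab9* (0.944). Those most like *Bcl2* were *2610008E11Rik* (0.981), *Mipep* (0.978), *Ikbkg* (0.975), *Gm15542* (0.973) and *Timm29* (0.969). These are the highest of 17095 values each, over 8 libraries that share 4 mice, and they describe likeness alone.

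Of 16 further genes of the family, 13 were tested and 0 were called by edgeR with the filter on low counts (1 at an unadjusted p under 0.05, and 1, *Bcl2l14*, by DESeq2 and by edgeR with no filter), with a median log2 fold change of 0.0022. *Bcl2l10* had no count in any library, *Hrk* had at most 3 and *Bcl2l15* at most 54, and these 3 were not tested. The gene that stood apart was *Bcl2l14*, which encodes BCL-G. It was at 0.910, 0.312, 0.719 and 0.145 normalized CPM in FCGR4+ and at 0.893, 2.82, 4.33 and 1.597 in FCGR4- macrophages of mice 1 to 4. The log2 ratio was 0.03 in mouse 1 and -3.04, -2.53 and -3.17 in the other 3 mice, for a log2 fold change of -2.32 (SE 0.681, interval -3.92 to -0.72, unadjusted p = 0.0110, adjusted p = 0.291 by edgeR). Its adjusted p was 0.0100 with DESeq2 and 0.0191 by edgeR with no filter, and its counts were low, 7 to 240 in a library. The markers of other cells given above moved in the same direction, and their part in this difference was not tested.

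Among the rest, the BH3-only gene *Bmf* was lower in FCGR4+ in 4 of 4 mice, as were 10.5% of all tested genes (4.59 to 6.86 against 5.88 to 7.52 normalized CPM, log2 fold change -0.32, SE 0.195, adjusted p = 0.611 by edgeR). *Bad*, a BH3-only gene regulated by phosphorylation, was at 22.0 to 32.8 against 27.0 to 31.5 normalized CPM (log2 fold change -0.031, interval -0.40 to 0.34). *Bnip3* and *Bnip3l*, which tag mitochondria for removal, had log2 fold changes of -0.34 and 0.16, and *Bnip3* spread from 28.0 to 293 normalized CPM within the FCGR4- libraries alone. The log2 fold changes of the pro-survival gene *Bcl2l2*, the effector-like *Bok* and the BH3-only *Bik* were -0.34, 0.22 and 0.58, all at 3.63 normalized CPM or below, and those of *Bcl2l12* and *Bcl2l13* were 0.32 and -0.26.

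In the neighboring steps of the pathway, no gene was called by edgeR with the filter on low counts, and *Xiap* was called without it. Of 18 genes of the apoptosome, the caspases and their inhibitors, all tested, 0 were called (0 at an unadjusted p under 0.05, 0 by DESeq2), with a median log2 fold change of 0.08. *Xiap*, an inhibitor of caspases, had the smallest p above 0 (27.7, 17.5, 36.6 and 38.8 against 27.5, 16.5, 18.4 and 10.6 normalized CPM, log2 fold change 0.73, SE 0.321, adjusted p = 0.515 by edgeR, and 0.0703 with no filter), close to equal in mice 1 and 2 and higher in FCGR4+ in mice 3 and 4. *Dffa*, which holds back the apoptotic DNase, had the smallest p below 0, at -0.38 on the log2 scale (adjusted p = 0.585 by edgeR).

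Of 15 genes of the death receptor arm, 14 were tested and 0 called (1 at an unadjusted p under 0.05, 0 by DESeq2), with a median of -0.09. The death receptor gene *Fas* was at 11.4, 13.7, 25.5 and 11.2 normalized CPM in FCGR4+ and at 13.6, 14.9, 37.4 and 16.3 in FCGR4- macrophages, lower in 4 of 4 mice (10.5% of all tested genes), with a log2 fold change of -0.37 (SE 0.156, adjusted p = 0.511 by edgeR). *Fadd*, its adaptor, was higher in FCGR4+ in 3 of 4 mice (log2 fold change 0.46, SE 0.233, adjusted p = 0.565 by edgeR).

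Of 21 upstream regulators and partners of the family, 20 were tested and 0 called (0 at an unadjusted p under 0.05, 0 by DESeq2), with a median of -0.07. *Vdac2*, which encodes the mitochondrial channel that binds BAK, was at 210.4, 221, 238 and 261 normalized CPM in FCGR4+ and at 192, 201, 192 and 187 in FCGR4- macrophages, a log2 fold change of 0.27 (SE 0.131, adjusted p = 0.557 by edgeR). Its values in the populations did not overlap, which was so for 3.91% of all tested genes. *Csf2rb*, a cytokine receptor chain through which GM-CSF signals, had a log2 fold change of -0.62 (SE 0.281, adjusted p = 0.527 by edgeR) and was lower in FCGR4+ in 3 of 4 mice.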

How the data were processed

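STAR was used by the authors to map reads to mm10, and featureCounts 1.6.3 to count them over the GENCODE M18 annotation. The deposited values are these raw counts for 54146 genes, with read pairs counted without strand and pairs mapping to several places counted at each. Values of 0 columns were left out. A gene was tested if 4 or more of the 8 libraries held 10 or more counts of it (17095 genes, holding 99.8% of counts or more), by the quasi-likelihood test of edgeR 4.0.16 in R 4.3.3 with TMM sizes, mouse as a block and Benjamini-Hochberg adjustment at a threshold of 0.1. The study fitted its paired model of mouse and population with DESeq2, which is an alternative here and called *Bcl2a1b* (adjusted p = 0.0051) and *Bcl2l14* (0.0100). The pairing comes from the mouse number in the labels, and libraries of the same mouse deviated together (correlations 0.291 to 0.428, different mice -0.336 to 0.0116). Libraries of 1 population differed from each other by more than sampling noise.

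SE is the log2 fold change over the square root of F, and intervals cover 95%. Ratios within a mouse use a prior count of 2. Groups are the labelled populations, and each library is 1 mouse. Shares of 50-base words and coding sequences come from GENCODE M21, also on mm10. Exon overlaps and gene coordinates are those of the deposited annotation (GENCODE M18). The members, pathway lists and markers were chosen with earlier results of these data known. The genes named are the 10 members, all tested genes of the wider family, the gene with the smallest p in each direction in each other list, the 5 genes most like *Bcl2a1b* and *Bcl2*, and *Fcgr4*. The untested genes of the family, genes that overlap a member and *Mcpt8* were named after their values were seen. Alternatives were DESeq2 1.42.0, edgeR's newer quasi-likelihood method, no block, library size alone, RLE size factors, other filters, a threshold of 0.05, leaving out each mouse, mice of 1 ID prefix alone and summed *Bcl2a1* copies. The test of the difference between ID prefixes, the ratio of *Bcl2a1b* to its copies and its length without *Gm29094* were added after the data had been seen.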

Additional observations from a re-analysis of the deposited data

Results flagged for a closer look

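In 3 of the 10 genes, against 17.0% of all tested genes, both mice of 1 animal ID prefix moved one way and both mice of the other prefix the opposite way. For *Bcl2l11* (BIM) the log2 ratios of FCGR4+ over FCGR4- were 0.87 and 0.09 in mice 1 and 2 and -0.44 and -0.48 in mice 3 and 4, so that the effect in mice 3 and 4 minus that in mice 1 and 2 was -0.94 (adjusted p = 0.327 by edgeR's interaction term). For *Bcl2l1* (BCL-XL) they were 0.06 and 0.17 against -0.45 and -0.26, a difference of -0.47 (adjusted p = 0.368 by edgeR), and for *Bax* -0.30 and -0.29 against 0.04 and 0.19, a difference of 0.41 (adjusted p = 0.405 by edgeR). None of the 3 differences passed the threshold of 0.1, and with 2 mice on each side a prefix cannot be told apart from the mice that carry it. In 30 groups of 4 values, over the 2 populations and the ratios of the 10 genes, no single value stood far enough from the rest of its group to be noted, where chance gives about 1.5.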

How the results depend on the processing

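Of 132 alternative values for the 10 genes, 116 kept their direction and their side of the threshold, 3 passed it (*Bcl2a1b* with DESeq2, the newer edgeR method and no filter) and 13 changed sign. The sign changes were in genes whose estimates lie close to 0. They were *Bcl2l1* in mice 1 and 2 alone (0.11), *Bax* in mice 3 and 4 alone (0.091), *Mcl1* with no filter (0.017), in mice 1 and 2 alone (0.15) and without mouse 2 (0.052) or mouse 3 (0.088), and *Bcl2l11* without the replicate block (-0.057), with RLE size factors (-0.0002), with library size alone (-0.085), with 10 counts in every library (-0.013), in mice 3 and 4 alone (-0.48) and without mouse 1 (-0.28) or mouse 2 (-0.031). Over all 4 mice left out in turn, *Mcl1* ranged from -0.16 to 0.088 and *Bcl2l11* from -0.28 to 0.17. The log2 fold change of *Bcl2a1b* was between 0.48 and 0.58 when each mouse was left out. Others moved more for their size. *Pmaip1* ranged from -0.72 to -0.12, *Bid* from -0.59 to -0.23, *Bcl2* from -0.36 to -0.09 and *Bak1* from 0.41 to 0.80. *Bbc3* ranged from -0.23 to -0.07, *Bcl2l1* from -0.22 to -0.02 and *Bax* from -0.18 to -0.02.

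Genes called among the 10 numbered 1 with DESeq2, with the newer method and with no filter, and in the other lists 1 with DESeq2 (*Bcl2l14*) and 2 with no filter (*Bcl2l14* and *Xiap*). Over all genes, 217 were called (14 higher, 203 lower). The number was 1024 with DESeq2 (192 and 832), 632 with the newer method (57 and 575), 1054 with no filter (159 and 895), 76 at a threshold of 0.05 (2 and 74), 113 in mice 1 and 2 alone (7 and 106), 113 in mice 3 and 4 alone (29 and 84) and 84 to 163 without 1 mouse (2 to 9 higher, 82 to 154 lower), the lowest without mouse 1. Without the replicate block it was 48 (1 and 47), and the block changed no call among the 10 genes. The median over all genes moved to -0.09 with library size alone, where 8 genes were called higher. The cause of these moves was not tested. Without division by length the share of *Mcl1* was 59.3% in FCGR4+ and 59.9% in FCGR4- macrophages. With the count of *Bcl2a1b* divided by its 416 bases outside *Gm29094* alone, the share of *Mcl1* was 30.2% and 35.2%. Genes with few counts had wide intervals, as *Bik* did with 5 to 84 counts in a library (-1.50 to 2.66).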
